A study of Mus musculus with 4 samples.

Results

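The genes described here encode the nuclear subunits of the mitochondrial respiratory chain and of ATP synthase, measured in mouse prefrontal cortex. They were chosen by name from the array design: non-control probes for genes named Ndufa, Ndufb, Ndufc, Ndufs or Ndufv (without the Ndufaf assembly factors), Sdha to Sdhd, Uqcr, Cox4 to Cox8 and Atp5. The rule gave 89 of the 27248 gene names on the array, and 88 of them had a probe well above background on all arrays, among 20655 such gene names. Complex I had 38 genes, complex II 4, complex III 8, complex IV 17 and complex V 18, and the prefix Sdha also took in the 4 complex II assembly factors Sdhaf1 to Sdhaf4, which are counted apart. The rule uses names only, and each gene stands for its brightest probe.

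The study crossed diet with genotype in B6J mice aged 3 months. From weaning on postnatal day 21 the mice ate either a starch diet or a sucrose diet for about 70 days, and carried either 2 wild-type copies of Glo1 or 1, as Glo1 heterozygous mice. Glo1 encodes glyoxalase 1, an enzyme that clears the reactive sugar by-product methylglyoxal. The labels give neither how the Glo1 allele was made nor the sex of the mice. The 4 groups, in the order used for every series of values below, were wild-type starch (the study's control), wild-type sucrose, heterozygous starch and heterozygous sucrose. Each group was 1 pool of RNA from 3 mice on 1 one-colour Agilent array, so the spread between mice was not measured, and differences between groups carry no p-value. All 4 arrays shared 1 slide, 1 array per position, and the effects of position and of group cannot be told apart.

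The respiratory chain passes electrons from NADH (complex I) and succinate (complex II) through ubiquinone, complex III and cytochrome c to oxygen at complex IV, and pumps protons out of the mitochondrial matrix on the way. ATP synthase, complex V, lets the protons back in and makes ATP. Most subunits are encoded in the nucleus and a few in the mitochondrial genome. Neurons draw most of their ATP from this pathway, and several complex IV subunits exist in a widely expressed form and a second form restricted to heart and muscle, testis, lung or particular neurons.

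Levels below are processed signals divided by the array's own 75th percentile of signal, and changes are log2 differences of such levels. Probes differ in how strongly they bind, so levels are compared between arrays and never between genes. The arrays were alike in range: 77.6% to 80.2% of spots were well above background, the 75th percentiles lay between 1780 and 1929 intensity units, and 0 spots were saturated. The Glo1 level, by the brightest of 3 probes, was 4.04, 5.53, 2.74 and 3.04 on the 4 arrays. Glo1 was thus at 67.7% of wild-type on starch and 55.0% on sucrose, and the other two probes gave 66.1% and 68.1% on starch and 56.3% and 54.8% on sucrose. Markers of tissues next to the prefrontal cortex differed between arrays: the summed level of 9 measured choroid plexus genes was 16.6, 17.9, 15.9 and 102.3, that of 10 striatal genes 32.4, 53.8, 49.9 and 27.8, and that of 6 globin and other erythroid genes 277.3, 134.5, 234.7 and 151.9. In bulk tissue, fewer cells of a type and less RNA per cell cannot be told apart.

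Promoters of a few of these genes were picked for their letters, with NRF1 or ETS letters in the widely expressed forms and none in the restricted forms. The contrast between them was thus set by the choice and is not a result. The widely expressed partner of Cox7b2, Cox7b, is not among them. RefSeq (assembly GRCm38.p6) gave 79 promoters of 73 of the 89 genes, each 300 bases from 250 before to 50 after the start site. Promoters were searched on both strands for exact letters: CGCATGCG (the core of the NRF1 site), CCGGAAG (the ETS family, which includes GABP), AAGATGGCG (YY1), GGGCGG (SP1) and TGACGTCA (the cyclic AMP element). NRF1, GABP and YY1 are known regulators of nuclear genes for mitochondrial proteins. In the sequences below, capitals mark NRF1, ETS and YY1 matches; CTTCCGG is the ETS motif read on the other strand, and no capitals overlap. Cox6a1 holds an NRF1 and an ETS match and Cox8a a pair of ETS matches, while the restricted form Cox8b holds none of these letters.
Cox6a1 promoter, chr5:115348909-115349208, minus strand: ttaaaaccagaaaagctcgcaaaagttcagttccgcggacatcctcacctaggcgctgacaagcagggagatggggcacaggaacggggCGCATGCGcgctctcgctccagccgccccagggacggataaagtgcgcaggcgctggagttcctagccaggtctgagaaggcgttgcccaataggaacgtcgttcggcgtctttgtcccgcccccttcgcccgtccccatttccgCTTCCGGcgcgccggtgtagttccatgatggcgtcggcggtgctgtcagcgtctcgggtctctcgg
Cox8a promoter, chr19:7217567-7217866, minus strand: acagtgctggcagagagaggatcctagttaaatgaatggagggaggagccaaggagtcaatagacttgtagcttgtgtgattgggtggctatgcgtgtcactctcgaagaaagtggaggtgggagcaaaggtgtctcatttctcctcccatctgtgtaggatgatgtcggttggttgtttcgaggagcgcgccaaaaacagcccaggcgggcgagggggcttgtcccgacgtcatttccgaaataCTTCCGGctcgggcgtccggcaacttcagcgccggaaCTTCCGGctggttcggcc
Cox8b promoter, chr7:140900397-140900696, minus strand: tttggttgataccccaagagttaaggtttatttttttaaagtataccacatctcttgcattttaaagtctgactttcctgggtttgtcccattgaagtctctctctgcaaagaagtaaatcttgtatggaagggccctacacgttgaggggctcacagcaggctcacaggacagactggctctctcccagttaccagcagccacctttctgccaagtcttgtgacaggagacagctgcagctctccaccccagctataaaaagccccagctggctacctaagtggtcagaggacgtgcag
Cox6b1 promoter, chr7:30626065-30626364, minus strand: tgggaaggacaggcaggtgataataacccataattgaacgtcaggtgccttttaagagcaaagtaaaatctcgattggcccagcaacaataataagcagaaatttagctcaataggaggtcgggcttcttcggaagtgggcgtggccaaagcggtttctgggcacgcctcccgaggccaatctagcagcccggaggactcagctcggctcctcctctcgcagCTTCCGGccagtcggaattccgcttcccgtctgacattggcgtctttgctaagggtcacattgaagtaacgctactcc
Cox6b2 promoter, chr7:4753045-4753344, minus strand: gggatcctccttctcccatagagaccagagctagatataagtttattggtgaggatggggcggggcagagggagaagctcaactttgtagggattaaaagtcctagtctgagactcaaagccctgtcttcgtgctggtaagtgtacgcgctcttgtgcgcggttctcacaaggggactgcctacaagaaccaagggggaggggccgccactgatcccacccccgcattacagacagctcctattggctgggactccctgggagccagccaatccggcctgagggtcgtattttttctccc
Cox7b2 promoter, chr5:71548156-71548455, minus strand: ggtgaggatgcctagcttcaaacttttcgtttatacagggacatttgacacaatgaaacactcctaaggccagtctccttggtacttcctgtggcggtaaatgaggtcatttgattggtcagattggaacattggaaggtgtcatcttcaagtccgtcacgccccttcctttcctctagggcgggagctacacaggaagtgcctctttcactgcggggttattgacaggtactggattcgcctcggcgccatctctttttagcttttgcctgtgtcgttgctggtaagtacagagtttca

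The NRF1 letters were in 11.4% of the subunit-gene promoters and in 1.87% of all 32851 promoters of the table. The ETS letters were in 24.1% against 8.86%, and the YY1 letters also in 11.4%, against 1.40%. The cyclic AMP element was in 5.06% against 1.79%, and SP1 in 43.0% against 35.7%. The 4 restricted forms with a promoter in the table (Cox6b2, Cox7a1, Cox7b2 and Cox8b) held 0 matches to the NRF1, ETS and YY1 letters, and Cox6b2 and Cox7b2 each held 1 to the SP1 letters. The promoters of the restricted forms had a median of 8.5 CpG pairs, against 20 in the other 75 subunit-gene promoters and 7 over all promoters. Cox8b had 2 where Cox8a had 19. The motif shares above were not matched for CpG content. These are matches of letters in a fixed window and not bound sites, and a gene without a match may hold another form of the motif.

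**Figure D1:**
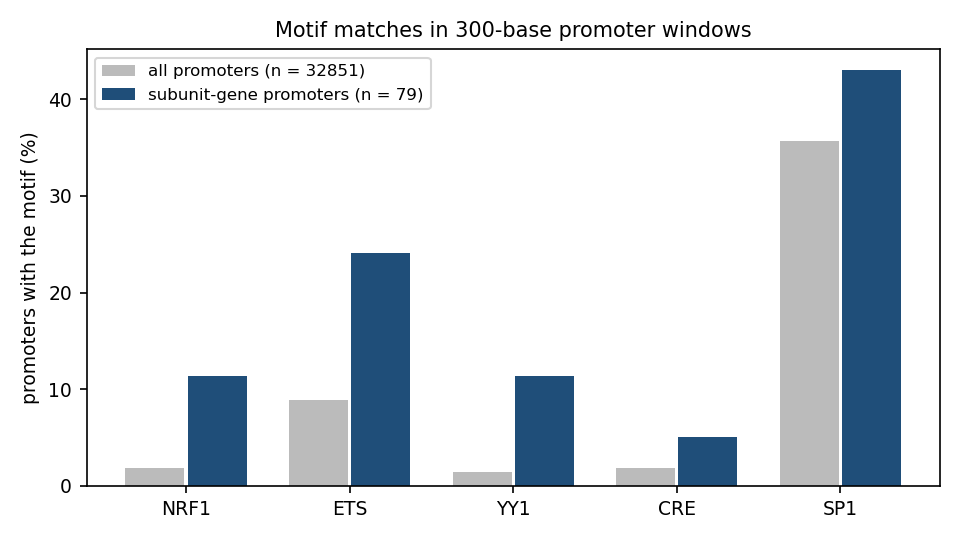
Share of promoters, in percent, that hold each of the 5 motifs, for all 32851 promoters of the table (grey bars) and the 79 promoters of the subunit genes (blue bars). The blue bar is the higher for each motif, with YY1 at 11.4% against 1.40% and ETS at 24.1% against 8.86%. The promoter sets were not matched for CpG content, with medians of 7 pairs (grey) and 19 (blue).

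As a group the subunit genes varied little between the arrays. Of the 88 measured genes, 74 (84.1%) had their highest and lowest array within 1.2-fold of each other, against 49.4% of all genes and 74.1% of the genes whose probe lay in the brightest quartile, where 79 of the 88 lay too. The median ratio of highest to lowest array was 1.14 for the subunit genes, 1.202 for all genes and 1.14 for the brightest quartile. A ratio over 1.5 was found for 2 genes, Cox7b2 and Cox8b, and over 2 for Cox8b alone. Repeated spots of a probe on the same array gave a technical SD of 0.068 (log2) for a difference of single spots in the brightest quartile, from 291 probes. The dimmer quartiles had few such probes, with 0.12 from 5, 0.13 from 3 and, in the dimmest, 0.66 from 1. These SDs leave out differences between mice, RNA pools and hybridisations. Atp5g2, whose protein forms part of the rotor ring of ATP synthase, was printed 10 times on each array. Its level was 30.3 ± 1.18, 29.6 ± 1.198, 28.0 ± 0.816 and 28.5 ± 0.829 (SD over 10 spots), which covers the spread of spots within an array only; the highest mean was that of the wild-type starch array and the lowest that of the heterozygous starch array.

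Between genotypes the subunit genes were slightly lower on the heterozygous arrays. The median change was -0.10 on starch and -0.09 on sucrose, against -0.02 and -0.02 over all genes. On starch 73 of 88 genes were below wild-type, with 54.0% of all genes below 0, and on sucrose 80 of 88, with 54.9%. Among the genes of the brightest quartile the shares were 50.5% on starch and 65.2% on sucrose. Both heterozygous arrays lay below both wild-type arrays for 58 of the 88 genes, with 20.9% of all genes in that order, and both lay above for 2 genes, with 13.8%. The heterozygous sucrose array was the lowest of the 4 for 64 genes (26.3% of all genes), and the wild-type starch array the highest for 57 (31.4%). Under quantile normalization these counts were 23 genes (26.1%, with 24.3% of all genes) and 19 genes (21.6%, with 29.3%). Neuronal markers differed on sucrose too. Of 8 cortical excitatory neuron genes 6 were lower on the heterozygous sucrose than on the wild-type sucrose array, with a median of -0.23. Past 1.2-fold were 3 of the lower genes and, in the other direction, Neurod6 at 0.48. Of 7 interneuron genes 6 were lower, with a median of -0.19. On starch these medians were 0.07 and 0.04, with 1 of 8 and 3 of 7 lower. The summed level of the excitatory genes was 40.7, 48.7, 43.8 and 41.4 on the wild-type starch, wild-type sucrose, heterozygous starch and heterozygous sucrose arrays, and its part in the shift was not tested. Of 5 melanocyte genes 4 were past 1.2-fold higher on the heterozygous array on each diet, with medians of 1.87 on starch and 2.01 on sucrose and a summed level of 0.320, 0.240, 1.45 and 0.770 on the 4 arrays in that order, while Tyr was lower at -0.97 and -0.13. Of 6 microglial genes 5 were lower on each diet, with medians of -0.14 and -0.09, and of 6 muscle genes 5, with -0.18 and -0.19. Other lists were mostly higher on sucrose: 6 of 7 oligodendrocyte, 5 of 6 endothelial, 7 of 8 pericyte and mural and 6 of 6 erythroid genes. Their medians were 0.02, 0.13, 0.03 and 0.28 on sucrose, and -0.02, -0.13, 0.07 and -0.31 on starch. The 7 astrocyte genes had medians of 0.01 on starch and -0.01 on sucrose. Striatal genes changed in opposite directions, with medians of 0.93 on starch and -1.32 on sucrose over 10 genes. The part of these lists was not tested either.

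The shift was also read by the brightness of the probes and under another scaling. Among genes with a mean log2 level of 4 or more, a cut added after seeing the data, the median genotype change was -0.09 on starch and -0.12 on sucrose for 62 subunit genes, and -0.04 and -0.08 for 1112 other genes. The 26 subunit genes under that level had -0.14 on starch, with 21 of 26 lower, and -0.03 on sucrose, so the dimmer genes had the larger median on starch and the smaller on sucrose. The heterozygous sucrose array was the lowest for 56 of the 62 brighter subunit genes and for 56.0% of the other bright genes. Of the 62, 52 were below wild-type on starch and 62 on sucrose, with 64.1% and 82.3% of the other bright genes. In that range both heterozygous arrays lay below both wild-type arrays for 45 of 62 subunit genes (72.6%) and for 39.3% of the other genes. Under quantile normalization, which forces the arrays to the same distribution, the medians moved to -0.01 on starch and -0.02 on sucrose, with 48 and 54 of 88 genes below wild-type. For the 62 brighter subunit genes they were 0.00 and -0.04, with 29 of 62 lower on starch. In that setting the share with both heterozygous arrays below both wild-type arrays was 33.0% for the subunit genes, 18.6% for all genes and 13.8% for the other bright genes.

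Between diets the group moved less than between genotypes under the main scaling, but not under quantile normalization. Sucrose minus starch had a median of -0.03 in wild-type mice, with 60 of 88 genes lower (50.1% of all genes), and of -0.05 in heterozygous mice, with 70 lower (49.9%). The medians over all genes were -0.00 and 0.00. Quantile normalization turned both medians, to 0.03 and 0.01, with 24 and 36 genes lower, so the diet direction of the group rests on the scaling. Of the 88 genes, 48 lay below starch in both genotypes, 6 above in both, and 34 (38.6%) changed in opposite directions, where the shares over all genes were 30.2%, 30.1% and 39.7%. The diet change in heterozygous minus that in wild-type mice, the interaction, had a median of -0.01. Cell markers differed between diets too. In wild-type mice 7 of 7 astrocyte, 7 of 7 oligodendrocyte and 6 of 6 erythroid genes were lower on sucrose. All 8 excitatory neuron and 10 striatal genes were higher. In heterozygous mice 5, 4 and 6 of the first 3 lists were lower, and 3 and 0 of the last 2 higher. The part of these lists was not tested.

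**Figure D2:**
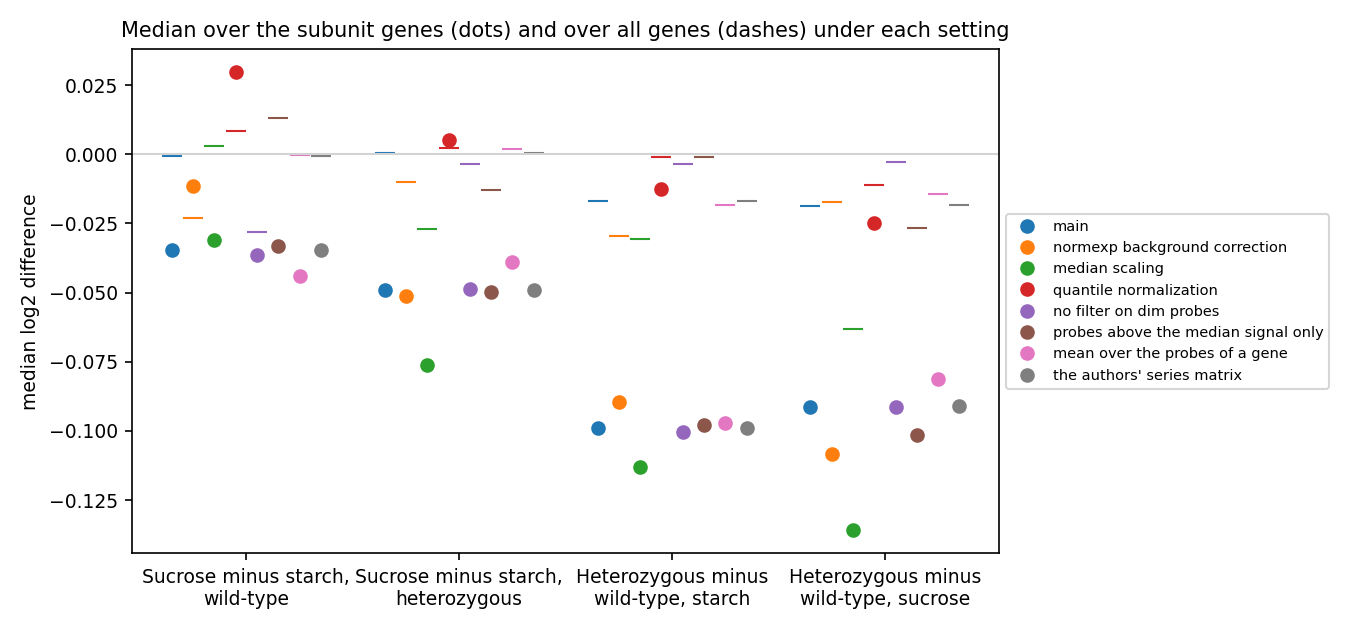
Median log2 difference over the subunit genes (dots) and over all genes (dashes) for the 4 pairwise comparisons, with 1 colour for each of 8 settings. The dots lie below the dashes in the genotype comparisons, least so under quantile normalization, where the starch median is -0.01, and the dots of the diet comparisons cross 0 in that setting.

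Few subunit genes changed by 1.2-fold or more by their brightest probe, and most that did were restricted forms, several of them dim. Some dim further probes of widely expressed genes changed by as much, and others less. That of Ndufs1 gave 0.84 between genotypes on sucrose, and 1 of Ndufb2 gave -0.57 between diets in wild-type mice. The part of low brightness in these changes was not tested. In wild-type mice 3 of 88 were past 1.2-fold between diets, all lower on sucrose (Cox6b2, Cox7a1 and the assembly factor Sdhaf3), a direction in which 13.8% of all genes were past it. In either direction 26.3% of all genes and 11.9% of those in the brightest quartile were past 1.2-fold. In heterozygous mice 4 were (Cox8b, Cox7b2 and Cox6b2 higher, Cox6a2 lower), with 20.9% of all genes and 7.09% of the brightest quartile. Between genotypes 2 were on starch (Cox4i2 and Cox7c, both lower, with 12.3% of all genes lower), against 20.7% and 6.55% in either direction, and 5 on sucrose (Cox8b, Cox7b2 and Cox6b2 higher, Cox6a2 and Cox7c lower), with 18.7% and 6.36%. The interaction was past 1.2-fold for 8 genes, with 28.9% of all genes and 11.8% of the brightest quartile. Without the restricted forms, 81 genes remained, and the counts were 1, 0, 1 and 1 for the pairwise comparisons in the same order and 3 for the interaction. Cox8b alone was past 2-fold, in the heterozygous diet comparison (1.77% of all genes) and in the genotype comparison on sucrose (1.71%) and in the interaction (2.88%). Of the 88 genes measured on all arrays, 0 were past 2-fold between diets in wild-type mice (1.48% of all genes) or between genotypes on starch (0.813%).

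**Figure D3:**
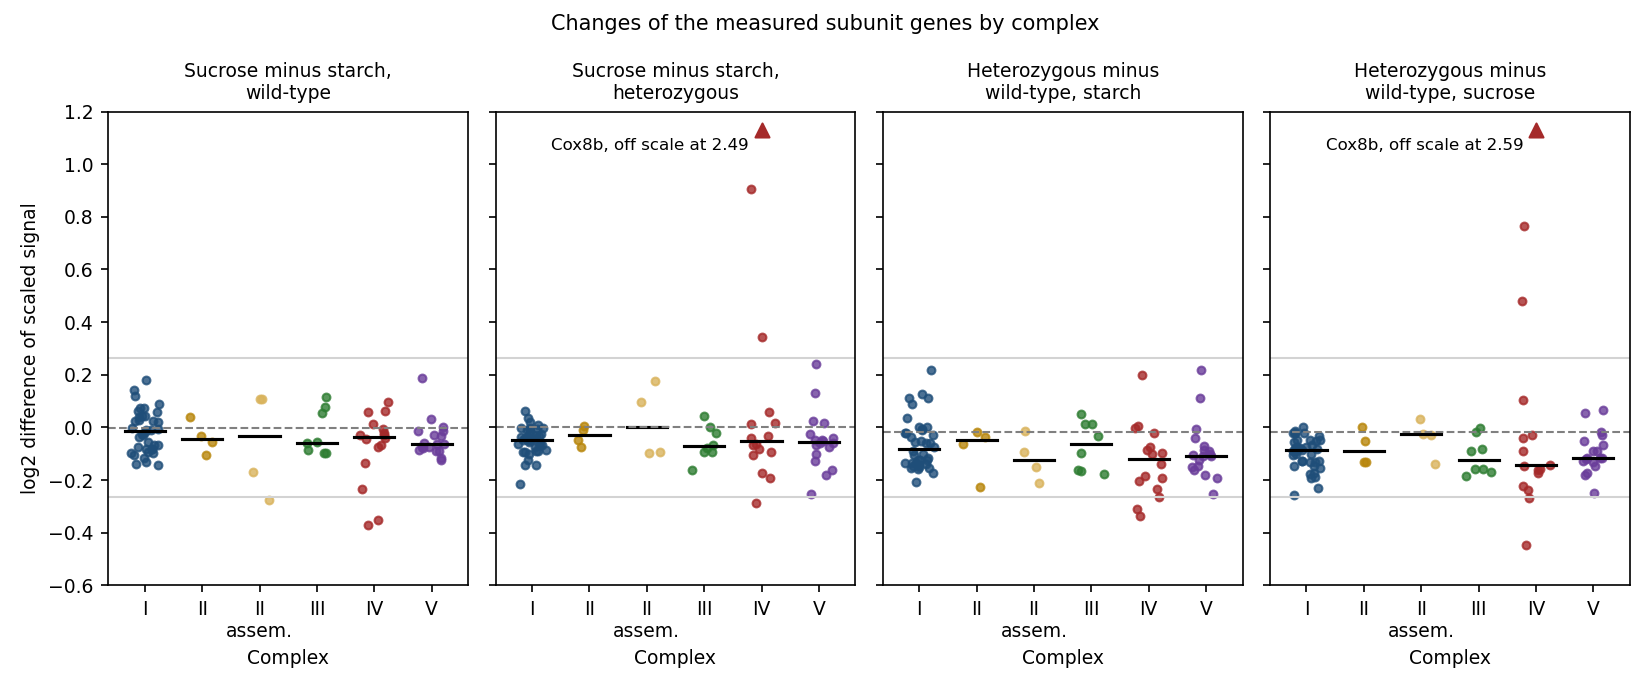
Log2 difference of scaled signal for each measured subunit gene (points), by complex, in the 4 pairwise comparisons. Black bars are medians over the genes of a complex, the dashed line is the median over all genes and the pale lines mark 1.2-fold; Cox8b is drawn as a triangle at the upper edge because it lies off the scale at 2.49 and 2.59, and nearly all other genes lie between the pale lines.

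Complex I takes electrons from NADH through a flavin site and a chain of iron-sulphur clusters. Its 38 measured genes had median changes of -0.01 and -0.05 between diets (wild-type, then heterozygous) and -0.08 and -0.09 between genotypes (starch, then sucrose). On the heterozygous sucrose array 37 of 38 were lower than on the wild-type sucrose array, where 82.3% of the 1112 other bright genes were lower too. Under quantile normalization the genotype medians were 0.00 and -0.01, with 19 and 23 of 38 genes lower. None of the 38 was past 1.2-fold in a pairwise comparison by its brightest probe, while bright second probes were for Ndufv1 (-0.30 between genotypes on starch) and Ndufa13 (-0.28 between diets in wild-type mice). The level of Ndufv1, the subunit that binds NADH and flavin, was 31.3, 32.6, 32.1 and 29.5, lowest on the heterozygous sucrose array. Ndufv2, its iron-sulphur partner, was at 21.3, 21.2, 20.8 and 20.2. Ndufs1, the largest iron-sulphur subunit, was at 18.8, 17.8, 17.3 and 17.3. By these probes the 3 subunits of the electron input module differed by at most 0.15 (log2) in the 4 pairwise comparisons. The second Ndufv1 probe was at 4.97, 4.51, 4.03 and 4.04, about equal on both heterozygous arrays, so the probes of Ndufv1 did not give the same pattern.

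Ndufs7, which lies near the ubiquinone site, was at 29.0, 29.4, 29.0 and 27.7, lowest on the heterozygous sucrose array. Ndufs3, in the connecting module, was at 28.1, 28.0, 26.9 and 26.9. Ndufs8, an iron-sulphur subunit, was at 20.7, 19.9, 18.8 and 18.0 and was the lowest of the 7 core genes between genotypes, at -0.14 on starch and -0.15 on sucrose. Over the 7 nuclear core genes the genotype medians were -0.03 and -0.07, and over the 31 others -0.10 and -0.09. Quantile normalization turned the core medians to 0.08 and 0.01. On sucrose 7 of 7 core genes were below wild-type (82.3% of the other bright genes), and 3 of 7 under quantile normalization.

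The other complex I genes encode accessory subunits that assemble and stabilise the complex. Between diets in wild-type mice Ndufa12 was the lowest at -0.14, with levels of 30.1, 27.3, 26.7 and 25.8. In heterozygous mice Ndufb8, a membrane-arm subunit often used to follow complex I assembly, was the lowest at -0.21 and Ndufb6 the highest at 0.06. Ndufb8 levels were 33.2, 35.3, 35.9 and 30.9, so its change on sucrose was upward in wild-type mice and downward in heterozygous mice, with an interaction of -0.30. That interaction was -0.09 when the probes of the gene were averaged, since its dim second probe gave 0.12. Between genotypes Ndufc2 was the lowest on starch at -0.21 and Ndufa11 on sucrose at -0.26. Ndufc2 levels were 29.1, 26.5, 25.1 and 25.3, and Ndufa11 levels 4.42, 4.49, 3.998 and 3.76. Ndufa4, named for complex I but now assigned to complex IV, was at 23.1, 23.8, 22.5 and 22.4.

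Complex II, succinate dehydrogenase, is both a citric acid cycle enzyme and an entry point to the chain, and is encoded wholly in the nucleus. The flavoprotein gene Sdha was at 17.2, 16.8, 16.8 and 16.2, and the iron-sulphur gene Sdhb at 31.98, 32.9, 31.6 and 30.01. Of the membrane anchors, Sdhc was at 6.70, 6.22, 5.72 and 5.68 and Sdhd at 13.6, 13.1, 13.0 and 13.1. All 4 had both heterozygous arrays below both wild-type arrays; for Sdhd on sucrose the gap was -0.00, and under quantile normalization 1 of the 4 held that order. A second bright Sdha probe, at 1.98, 1.80, 1.80 and 1.89, did not hold it. Sdhc had the largest genotype change, -0.23 on starch. Among the assembly factors, which insert flavin and iron-sulphur clusters, Sdhaf3 was at 0.392, 0.323, 0.353 and 0.331, lower on sucrose in wild-type mice at -0.28. Sdhaf4 was higher on sucrose in both genotypes, at 0.11 and 0.18. Sdhaf2 was the lowest of the 4 between genotypes, at -0.21 on starch and -0.14 on sucrose, and Sdhaf1 stayed near wild-type at -0.01 and -0.03.

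Complex III moves electrons from ubiquinol to cytochrome c. Its 8 measured nuclear genes had genotype medians of -0.06 on starch and -0.12 on sucrose. On sucrose 8 of 8 were lower, with 82.3% of the other bright genes. Under quantile normalization the complex III medians were 0.02 and -0.04. The Rieske iron-sulphur gene Uqcrfs1 was at 16.1, 17.0, 16.3 and 16.8, and the core genes Uqcrc1 and Uqcrc2 at 17.1, 18.5, 17.7 and 17.5 and at 27.0, 28.1, 26.4 and 26.4. These 3 were slightly higher on sucrose in wild-type mice, between 0.06 and 0.11. The small supporting subunits went the other way: Uqcr10 was at 49.3, 47.4, 43.6 and 41.7, Uqcr11 at 36.2, 33.8, 32.3 and 30.3, and Uqcrq at 51.0, 47.8, 45.6 and 42.8. For these 3 genes the arrays had the same order, from wild-type starch down to heterozygous sucrose. Uqcrh, the hinge subunit that docks cytochrome c, was at 63.9, 60.2, 59.8 and 53.5, and Uqcrb was at 21.9, 21.0, 22.1 and 21.0. A second bright Uqcr10 probe gave -0.27 between genotypes on starch and -0.19 on sucrose, and one of Uqcrb -0.18 and 0.14.

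Complex IV reduces oxygen to water. Its 16 measured genes had genotype medians of -0.12 on starch and -0.14 on sucrose, which under quantile normalization were -0.07 and -0.06. Among the widely expressed forms, the level was lowest on the heterozygous sucrose array for Cox4i1 (67.3, 61.2, 58.4 and 54.3), Cox5a (54.6, 53.8, 51.9 and 46.1), Cox6a1 (158.0, 153.7, 149.1 and 130.3), Cox7a2 (40.6, 38.8, 36.8 and 34.8) and Cox8a (93.7, 93.3, 87.4 and 83.4). Cox6b1 was at 5.95, 6.001, 5.22 and 5.44, and Cox6c at 45.2, 44.3, 44.5 and 43.4. Cox7a2l, a factor that joins complexes III and IV into supercomplexes, was at 35.2, 34.5, 35.1 and 33.6. Cox7c was the only widely expressed form past 1.2-fold in the 4 pairwise comparisons, at 15.9, 15.2, 12.9 and 12.6, which is -0.31 between genotypes on starch and -0.27 on sucrose. A second Cox7c probe, also in the brightest quartile, gave -0.03 and 0.18, so the probes of Cox7c did not give the same change.

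By the brightest probe of each gene, the restricted forms of complex IV subunits held the largest differences. Cox8b, the heart, skeletal muscle and brown fat form of subunit 8, had a level of 0.0847, 0.0906, 0.0973 and 0.547, which was 151, 173, 183 and 1056 intensity units before scaling. The first 3 arrays were close and the heterozygous sucrose array stood apart, 5.62-fold above heterozygous starch (log2 2.49) and 6.04-fold above wild-type sucrose (2.59). Its widely expressed partner Cox8a moved by -0.07 and -0.16 in the same comparisons. Cox7b2, a testis form, was at 0.157, 0.152, 0.138 and 0.258, also highest on the heterozygous sucrose array, by 0.90 over heterozygous starch and 0.76 over wild-type sucrose. Cox7b was at 22.7, 23.6, 22.8 and 21.3. Each of these genes had 1 spot an array, and normexp background correction lowered the Cox8b values to 2.06 and 2.15 and those of Cox7b2 to 0.71 and 0.63.

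Cox6b2, a further testis form, was at 0.302, 0.234, 0.257 and 0.326. It was lower on sucrose in wild-type mice (-0.37) and higher on sucrose in heterozygous mice (0.34), and its partner Cox6b1 changed by 0.01 and 0.06. Cox6a2, the heart and muscle form that is also known from parvalbumin interneurons, was at 2.54, 2.65, 2.37 and 1.945, lowest on the heterozygous sucrose array at -0.29 against heterozygous starch and -0.45 against wild-type sucrose. Pvalb, which encodes parvalbumin, was at 5.54, 6.93, 5.25 and 5.33, and thus changed by 0.02 and -0.38 in those comparisons. Over the 7 interneuron genes of the list the medians were -0.23 and -0.19, with 5 and 6 lower, and the summed level was 108.4, 110.8, 110.5 and 98.7, also lowest on the heterozygous sucrose array. Whether the makeup of the tissue plays a part in the Cox6a2 difference was not tested. Cox7a1, the heart and muscle form of subunit 7a, was at 1.152, 0.902, 0.960 and 0.970, highest on the wild-type starch array. Cox4i2, a lung form that responds to low oxygen, was at 0.350, 0.298, 0.277 and 0.280, also highest on that array, and Ndufa4l2, a hypoxia-induced relative of Ndufa4, at 0.421, 0.478, 0.490 and 0.478, lowest on it. The summed level of 8 pericyte and mural cell genes, among the cells known to express the last 2 genes, was 14.8, 14.9, 15.1 and 15.1.

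**Figure D4:**
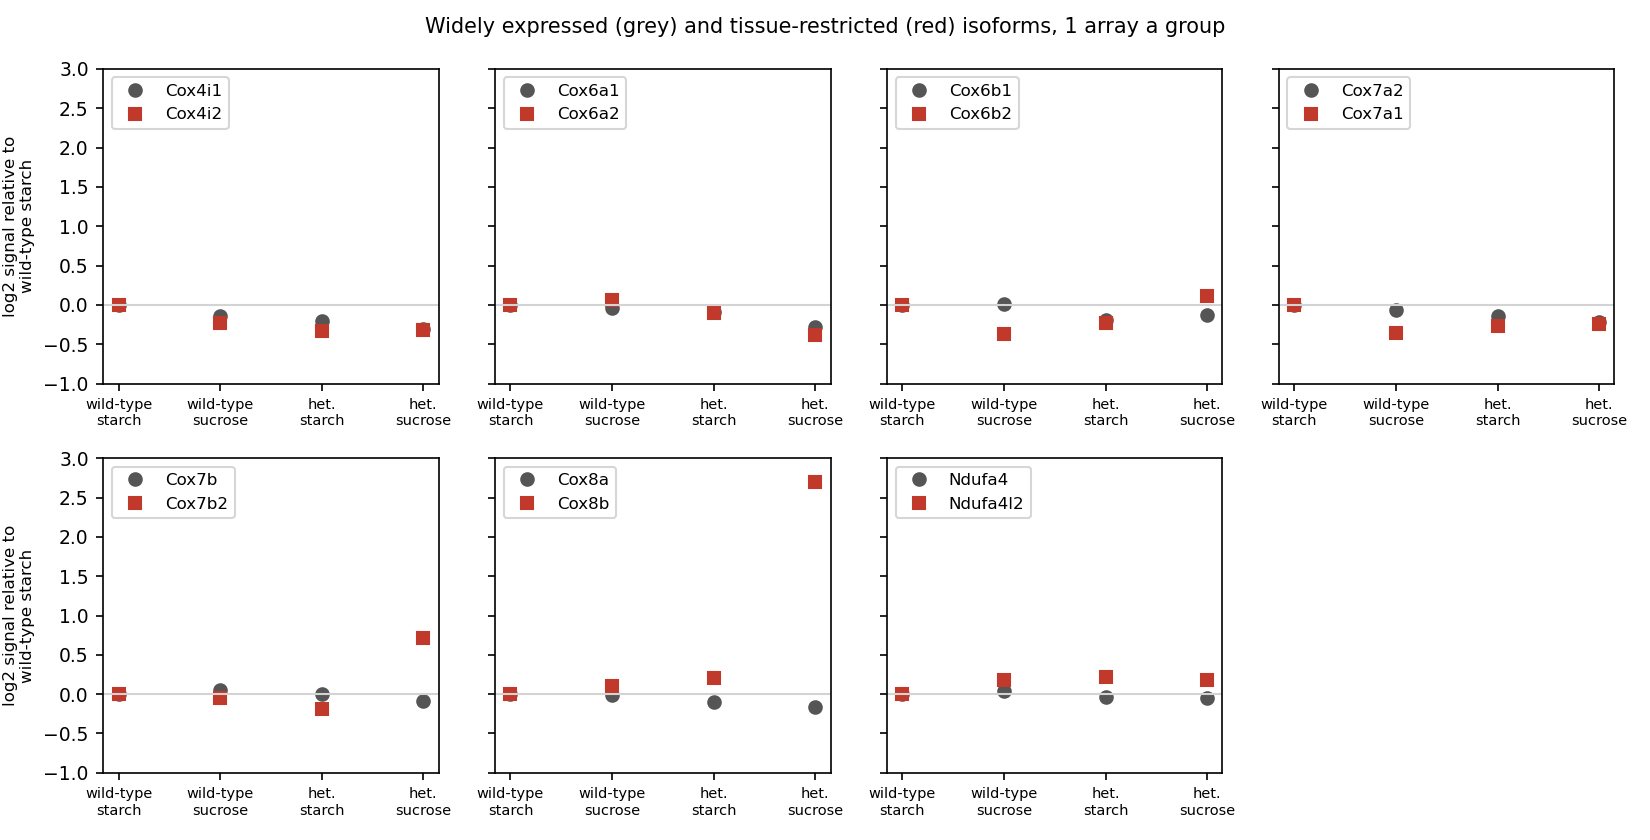
Log2 signal relative to the wild-type starch array for 7 pairs of widely expressed (grey circles) and restricted (red squares) forms, with 1 array a group and no error bars. Cox8b stands at the top on the heterozygous sucrose array and Cox7b2, Ndufa4l2 and Cox6b2 are above 0 there, while the grey partners lie at or below 0 on that array.

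Markers of other tissues moved with Cox8b and Cox7b2. All 9 measured choroid plexus genes of 10 on the list were past 2-fold higher on the heterozygous sucrose array, both against heterozygous starch and against wild-type sucrose, and Ttr, its most abundant transcript, was at 0.259, 1.42, 0.101 and 58.7. The summed level of 4 measured ependymal genes was 1.26, 0.978, 1.03 and 2.42. The 10 striatal genes were all past 1.2-fold lower on that array in both comparisons. For the tissues in which Cox8b is best known, 6 of 8 muscle genes were measured, with a summed level of 1.59, 1.90, 1.34 and 1.65, and 3 of 5 brown fat genes, with 1.12, 0.808, 0.773 and 1.25; the brown fat genes Ucp1 and Adipoq were not well above background on all arrays. On the heterozygous sucrose array the muscle sum was within the range of the other arrays and the brown fat sum was the highest of the 4. Against heterozygous starch, 5 of 6 muscle and 3 of 3 brown fat genes were higher there, and against wild-type sucrose 1 of 6 and 2 of 3. The part of these tissues in the Cox8b and Cox7b2 values was not tested.

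Cox8c, a testis form, was well above background on the wild-type starch array only, at a level of 0.140, from 1 probe with 1 spot. It was at least 25.3-fold higher there than on the wild-type sucrose array and at least 20.9-fold higher than on the heterozygous starch array, with the lowest signal well above background taken as the floor on the dim side. Cox8c was not well above background on either heterozygous array, so no fold is given between these. A dim further probe of Ndufa7, a widely expressed gene, was likewise well above background on 1 array only. Its level was 0.00385, 0.0737, 0.00559 and 0.00483, so a jump on 1 array is not particular to Cox8c.

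The probes behind the restricted forms are shown by their first 30 of 60 bases, in the mm9 coordinates of the design, since these differences rest on 1 probe each. Within their full 60 bases, the probes of Cox8a and Cox8b share no run longer than 6 bases, those of Cox7b and Cox7b2 and of Cox6b1 and Cox6b2 6, and those of Cox6a1 and Cox6a2 and of Cox7a1 and Cox7a2 4. The Cox7a1 probe spans 612 genomic bases and so crosses an intron. Whether each probe lies in a coding part or a UTR was not analysed here.
Cox8b probe, chr7:148084852-148084911, minus strand: ctataaaaagagctccgcagcatgaagttg
Cox7b2 probe, chr5:71834167-71834226, minus strand: cccaagagtggaagaagaagtaaatatctt
Cox6b2 probe, chr7:4703488-4703547, minus strand: ggaactttcccgggcaaaatatgaccttgc
Cox6a2 probe, chr7:135349160-135349219, minus strand: agcaatcttcaaattggccttctgcacacc
Cox7a1 probe, chr7:30970337-30970948, plus strand: acaacgtcctgtacagactgaccatgacgc

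Complex V is a rotary motor with a catalytic head, F1, and a proton channel in the membrane, FO. Its 18 measured genes had genotype medians of -0.11 on starch and -0.12 on sucrose, with 16 of 18 lower on each diet. Of the other bright genes 64.1% were lower on starch and 82.3% on sucrose. Under quantile normalization the complex V medians were -0.01 and -0.04, with 11 and 12 of its genes lower. Of the head, Atp5a1 (alpha) was at 80.5, 76.5, 73.9 and 70.6. A second bright Atp5a1 probe was at 8.06, 7.45, 6.72 and 7.33, lowest on the heterozygous starch array, where the first was lowest on the heterozygous sucrose array. Atp5b (beta, the catalytic subunit) was at 70.4, 71.9, 76.1 and 63.8, lowest on the heterozygous sucrose array at -0.25 against heterozygous starch. A second bright Atp5b probe was at 35.01, 31.9, 31.6 and 30.3, which gave -0.06 in that comparison, and the Atp5b interaction was -0.28 by the first probe and -0.06 as the mean over probes. Atp5c1 (gamma, the shaft) was at 43.3, 43.4, 42.1 and 40.0, Atp5d (delta) at 12.3, 12.04, 11.4 and 11.1, and Atp5e (epsilon) at 33.3, 33.0, 31.3 and 30.3. For the last 3 genes the genotype changes lay between -0.04 and -0.13.

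The rotor ring is made from 3 genes that encode the same mature c subunit. Atp5g1 was at 35.8, 34.3, 34.1 and 32.8 and Atp5g3 at 46.9, 46.4, 46.7 and 43.6, and with Atp5g2 above their genotype changes lay between -0.11 and -0.01. A second bright Atp5g1 probe gave -0.28 between genotypes on starch, past 1.2-fold, and -0.11 on sucrose, and another bright probe gave -0.04 and -0.03. Among the other membrane and stalk genes, Atp5l, a dimer subunit, was the lowest between diets in wild-type mice at -0.12, with levels of 54.5, 49.98, 51.3 and 46.9; its second bright probe gave 0.03. Atp5k, another dimer subunit, was the lowest between genotypes on sucrose at -0.25, at 43.3, 41.0, 39.1 and 34.5, and a second bright probe gave -0.15. Some names taken in by the prefix are not ATP synthase subunits proper. Atp5c1-ps is a pseudogene whose signal may include its parent gene, at 5.11, 4.85, 4.29 and 5.07, with an interaction of 0.32. Atp5sl and Atp5s, now named Dmac2 and Dmac2l in RefSeq, were at 6.13, 6.97, 7.13 and 6.89 and at 0.175, 0.161, 0.153 and 0.168.

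The genes that work with these subunits were compared as lists. Of the subunits encoded in the mitochondrial genome 11 were measured, and the medians were -0.11 and -0.09 between diets and -0.10 and -0.06 between genotypes, with 11, 10, 11 and 8 lower. Under quantile normalization these medians were -0.01, 0.00, -0.03 and -0.01. CYTB, the cytochrome b of complex III, was at 137.9, 124.9, 123.2 and 114.7, and COX1, the catalytic subunit of complex IV, at 140.4, 117.3, 126.5 and 120.8. Only ND6 was past 1.2-fold, lower on sucrose at -0.33 and -0.28; it is encoded on the opposite strand from the other mitochondrial subunits. Of the 13 complex I assembly genes 12 and 10 were lower between genotypes, with medians of -0.07 and -0.05 (under quantile normalization -0.07 and -0.03, with 10 and 10 lower), and Timmdc1 on sucrose was the only gene past 1.2-fold, at -0.31. Of 17 complex IV assembly genes 9 and 14 were lower, with medians of -0.01 and -0.08 (quantile 0.01 and -0.04), and Cox17, a copper chaperone, was the lowest between diets in wild-type mice at -0.36, where Sco1, another copper chaperone, was the highest at 0.36.

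Of 13 citric acid cycle genes 9 and 12 were lower between genotypes, with medians of -0.08 and -0.08, and 9 and 9 under quantile normalization, with -0.01 and -0.01. The 10 measured carriers and nucleotide exchangers had genotype medians of -0.04 and -0.07, of which the first turned to 0.04 under quantile normalization. Ucp2, an uncoupling protein, was the lowest of them at -0.41 between diets in wild-type mice and -0.45 between genotypes on starch. Of the 13 regulators of mitochondrial biogenesis, 3 and 6 were lower between genotypes, with medians of 0.06 and 0.00. Ppargc1a, a coactivator of NRF1 and the estrogen-related receptors, was the highest on starch at 0.20, and Nrf1 on sucrose at 0.20. These medians are a description of 1 array a group and set no list apart.

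Where a gene had several measured probes, the second brightest gave a check within the same RNA. For 21 genes the second probe also lay in the brightest quartile, and it had the same sign as the first for 17 and 10 genes between diets and for 15 and 16 between genotypes. Its median genotype changes were -0.13 on starch and -0.07 on sucrose, against -0.09 and -0.13 for the first probe. Past 1.2-fold were 1, 0, 3 and 0 of these second probes in the 4 comparisons, and 0, 0, 1 and 1 of the first probes. The median gap between the probes of a gene lay between 0.06 and 0.14 in these comparisons, which is as large as the changes themselves. For 14 genes with a dimmer second probe the signs were the same for 4, 10, 5 and 5 genes. Dim second probes gave the widest gaps: that of Ndufs1 was 0.84 between genotypes on sucrose where the bright probe gave -0.05, and that of Atp5j was 0.72 between diets in wild-type mice where the bright probe gave -0.06.

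**Figure D5:**
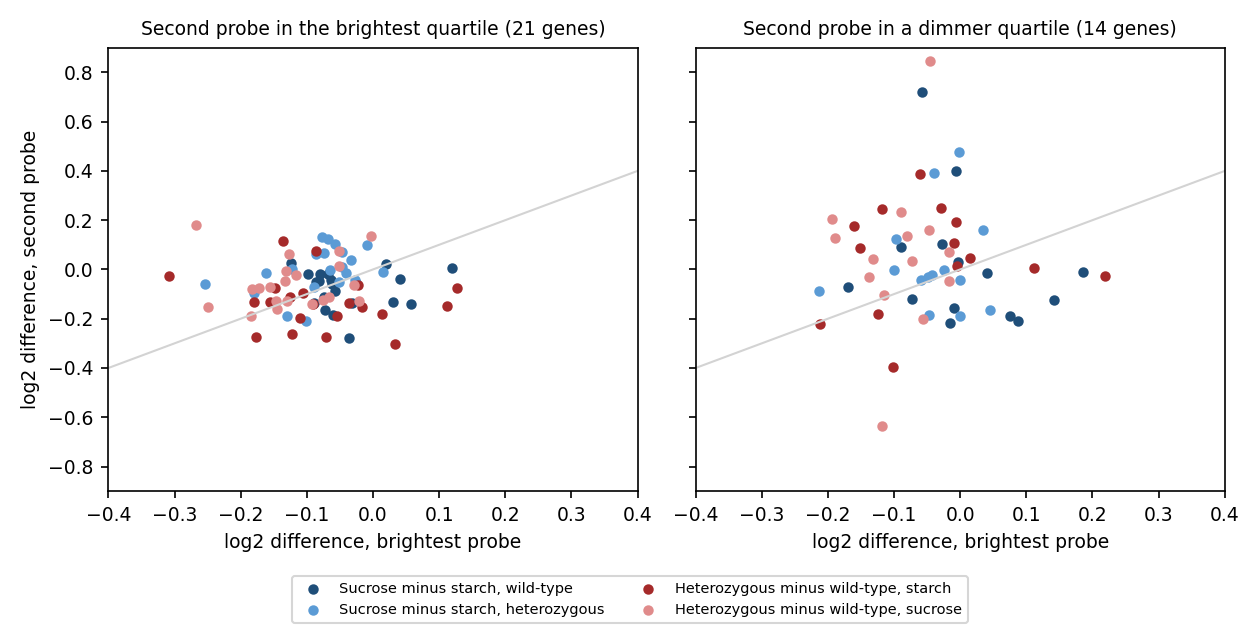
Log2 difference by the second brightest probe of a gene (vertical axis) against that by the brightest probe (horizontal axis), in 4 colours for the 4 pairwise comparisons. The grey line marks equal values; points of the 21 genes with a bright second probe (left) stay within about 0.3 of 0, while those of the 14 genes with a dimmer second probe (right) reach 0.84.

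The additive limma fit of diet and genotype, which leaves 1 residual degree of freedom, called 0 of the 88 genes for either factor at an adjusted p under 0.05, and 0 of all probes. At an unadjusted p under 0.05 it had 0 of 88 for diet, against 8.80% of all probes, and 1 of 88 for genotype (Cox7c), against 6.42%. The smallest Benjamini-Hochberg adjusted p from limma among the subunit genes was 0.637 for diet and 0.733 for genotype. A prior variance that follows the signal was also tried, which leaves the fitted changes as they are. The median fitted genotype change was -0.08 over the 88 genes and -0.01 over all probes. Under quantile normalization these were -0.01 and -0.01. Simulated data took the residual spreads of the real probes, shuffled over probes, so the link of spread to brightness was not kept. In them the additive fit recovered 0% of planted 2-fold and 4-fold changes, by diet and likewise by genotype. Its count of 0 thus gives no information on changes of these sizes. The prior that follows the signal was not simulated.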

How the data were processed

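Total RNA of 4 prefrontal cortex pools was hybridised to one-colour Agilent arrays. The deposited intensity values are the authors' scanner output from Agilent Feature Extraction 11.5.1.1, per the submitters' processing notes, with background subtraction and spatial detrending per the file headers. The authors also deposited a series matrix with 1 ratio per spot, found here to be the processed signal over the array's 75th percentile. Each signal was divided here by the 75th percentile of its array, taken without control spots, and put on the log2 scale. Outlier spots were dropped and spots of a probe averaged. Of 56605 probes, 42094 were well above background on all 4 arrays and were kept, 35477 of them with a gene symbol. The additive fit used limma 3.58.1 (lmFit, eBayes) in R 4.3.3, over all 42094 probes, with Benjamini-Hochberg adjustment. It was tested on simulated data.

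A pairwise difference was counted at 1.2-fold and 2-fold. Genes were named by a rule: the highest and lowest of each complex in each comparison, those past 2-fold, the core subunits, the restricted forms, those not measured on every array, and the highest or lowest of other lists. Cox6a1, Cox8a and other widely expressed partners, second probes, and Pvalb and Ttr were named after their values had been seen. The values of 1 gene that the rule names are not reported here. The members and lists were chosen with earlier results of these data known. Alternatives were normexp background correction (offset 50), median and quantile scaling, no filter on dim probes, probes above the median signal, the mean over the probes of a gene, and the authors' series matrix. Promoters are from RefSeq, GRCm38.p6; 86 gene names matched as written and 3 through older symbols. Probe coordinates are mm9, as in the files.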

Additional observations from a re-analysis of the deposited data

Results flagged for a closer look

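Cox6b2, the testis form of complex IV subunit 6b, was flagged because its diet change was past 1.2-fold in opposite directions: it was -0.37 for wild-type and 0.34 for heterozygous mice, an interaction of 0.71 on the log2 scale. The difference was not tested, since each group had 1 array, and the gene had 1 spot an array at 445 to 629 intensity units. Over the 7 alternative settings the interaction lay between 0.61 and 0.71. Of all 88 subunit genes it was the only one that met this condition between diets, which is 1.14%, against 2.68% of all genes.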

How the results depend on the processing

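Without replicates, no library could be left out of a group. Among the main results, 83 values under the alternatives stayed within the limits set for them and 11 moved. Median scaling gave 4 genes past 1.2-fold between genotypes on starch and 10 on sucrose, against 2 and 5. Averaging the probes of a gene gave 1 on starch. Probes above the median signal gave 2 genes between diets in heterozygous mice and 3 between genotypes on sucrose. Quantile normalization moved the genotype median on starch to -0.012, and turned the diet medians to 0.03 and 0.01. Without the restricted forms, chosen after seeing the data, the counts were 1, 0, 1 and 1, and 3 for the interaction. Over all alternatives the genotype medians lay between -0.11 and -0.01 on starch and between -0.14 and -0.02 on sucrose. Of the values for single genes 126 held and 8 moved, those of Cox8b and Cox7b2 under normexp and of Atp5b and Ndufb8 as a mean over probes. The limma fit called 0 subunit genes in each setting. No paired analysis was possible because each group had 1 array, so no replicate number could serve as a block. Dim signal limits Cox8b and Cox7b2, which background correction moved, and Cox8c, which was above background on 1 array.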
